A study of Mus musculus with 12 samples.

Results

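Interleukins act on cells through receptors built from a small set of shared and private chains. The transcripts of 35 interleukin receptor genes were followed here in macrophages taken from tumours. The members were a list of gene symbols, matched through their Ensembl identifiers to the 36439 genes of the count tables, and all 35 were found. The list holds 7 genes of the IL-1 receptor family, 8 of the common gamma chain group, 2 IL-13 receptor chains, 2 alpha chains that pair with the common beta chain, 7 of the gp130 and IL-12 receptor family, 4 class II receptors of the IL-10 family and 5 IL-17 receptors.

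RNA sequencing libraries came from tumour-associated macrophages (TAMs) in C57BL/6 mice that bore Lewis lung carcinoma, a mouse lung tumour passed on by transplantation, under the skin. There were 4 groups of 3 libraries. MRC1+ TAMs were F4/80+ cells with the mannose receptor MRC1, and CD11c+ TAMs were F4/80+ cells with the integrin CD11c. The miR-511-3p TAMs were F4/80+ cells that overexpressed miR-511-3p, a microRNA made from an intron of Mrc1, and the mutated miR-511-3p TAMs overexpressed a mutated form of it. The titles of both overexpression groups carry the prefix SFFV, and the labels give neither the mutated bases nor the age of the mice. Nothing says that the numbered replicates are separate mice or tumours. The p-values therefore cover the spread of these libraries alone, and that spread may be technical.

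Reads in genes were 15664146 to 17689064 per MRC1+ library and 10824918 to 17318957 per CD11c+ library. The overexpression libraries held 22906418 to 27890433. Levels are given as CPM, read counts relative to the library total after TMM scaling, for libraries 1, 2 and 3 of each group in that order. The sorted and the overexpression libraries were scaled apart, and no test was made between them. Levels of different genes are compared only per kilobase (kb) of exon. A log2 fold change is a difference between groups, with an approximate standard error (SE). The 8 macrophage markers, which include the gate gene Mrc1, summed to between 11523 and 14394 CPM in MRC1+ libraries. Their sums were between 8698 and 10825 CPM in CD11c+ and between 11239 and 13426 CPM in each overexpression library. In bulk libraries fewer cells of a type and less RNA per cell cannot be told apart.

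Most interleukin receptors are pairs or larger complexes of a chain that binds the ligand and a chain that signals. Chains of the IL-1 receptor and IL-17 receptor families signal through adaptor proteins to NF-kB, and most others through JAK kinases and STAT factors. Several members do not signal and hold the ligand away from its receptor. In macrophages IL-4 and IL-13 drive a programme of alternative activation, and IL-10 restrains inflammatory genes.

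By mean level, Il4ra, Il10ra, Il2rg and Il13ra1 were among the 5 highest receptor transcripts per length in all 4 groups. Il1r2 was among them in CD11c+ TAMs only. In MRC1+ TAMs the highest levels per length were those of Il4ra, the chain that binds IL-4 (97.9 ± 0.725 CPM per kb, SD, n = 3), and Il10ra, which binds IL-10 (65.6 ± 3.63). Il2rg, the common gamma chain, stood at 51.2 ± 2.77 CPM per kb, Il13ra1, which joins IL-4Ra to form the type II IL-4 receptor, at 46.0 ± 3.03, and Il10rb, the shared second chain of the IL-10 receptor, at 24.1 ± 1.82. Of neighbours in this order, the intervals of mean ± SD overlapped only for Il2rg and Il13ra1. In CD11c+ TAMs the order per length began with Il1r2 (205 ± 69.1 CPM per kb), Il10ra (135 ± 33.9), Il13ra1 (90.1), Il4ra (84.5 ± 14.99) and Il2rg (66.3 ± 13.5). The intervals of mean ± SD overlapped for Il1r2 and Il10ra, for Il13ra1 and Il4ra, and for Il4ra and Il2rg. In both overexpression groups Il2rg came first, at 159 ± 10.04 and 162 ± 1.48 CPM per kb with miR-511-3p and its mutated form. Il10ra (92.0 ± 3.78 and 91.9 ± 3.75) and Il4ra (87.2 ± 11.2 and 76.1 ± 3.10) followed, with overlapping intervals of mean ± SD in the miR-511-3p group and none in the mutated group. Il10rb (31.3 in both groups) and Il13ra1 (30.9 and 32.5 CPM per kb) took the next places. Il21r, at 30.9 ± 3.93 and 28.5 ± 3.16 CPM per kb, overlapped Il10rb (± 1.54 and ± 1.65) and Il13ra1 (± 3.07 and ± 3.92) in both groups. The places after Il4ra are thus not settled there. At the other end, 9 members averaged under 1 CPM in MRC1+ TAMs and 6 in CD11c+ TAMs, against 18 at 10 CPM or above in each.

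The comparison of MRC1+ with CD11c+ TAMs asks how the receptor set differs between these TAM subsets. No interleukin receptor gene was called higher in MRC1+ TAMs and 8 were called lower. These were Il1r2, Il2ra, Il7r, Il13ra1, Il6ra, Il31ra, Il10ra and Il17ra, so each family except the common beta chain alphas had at least 1 gene that fell. The calls come from the quasi-likelihood test of edgeR, adjusted by Benjamini and Hochberg's method over all 15622 genes tested, with a threshold of 0.05. Of all these genes 6.91% were called higher and 9.71% lower, or 16.6% in either direction. Of the 35 members 31 passed the filter on low counts, and the 8 calls are 25.8% of those 31. The median log2 fold change of the 31 was -0.29, against 0.012 over all genes tested. There was no overlap between the groups' libraries for 3 members that were higher and 14 that were lower in MRC1+ TAMs. Over all genes tested these shares were 18.7% and 19.6%, or 38.3% in either direction, and 33.3% had an unadjusted p under 0.05, as did 17 of the members. Il9r, the IL-9 receptor, Il5ra, the IL-5 receptor, Il22ra2, a soluble protein that binds IL-22, and Il17re, part of the IL-17C receptor, had 0 to 7 reads per library and were not tested.

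**Figure D1:**
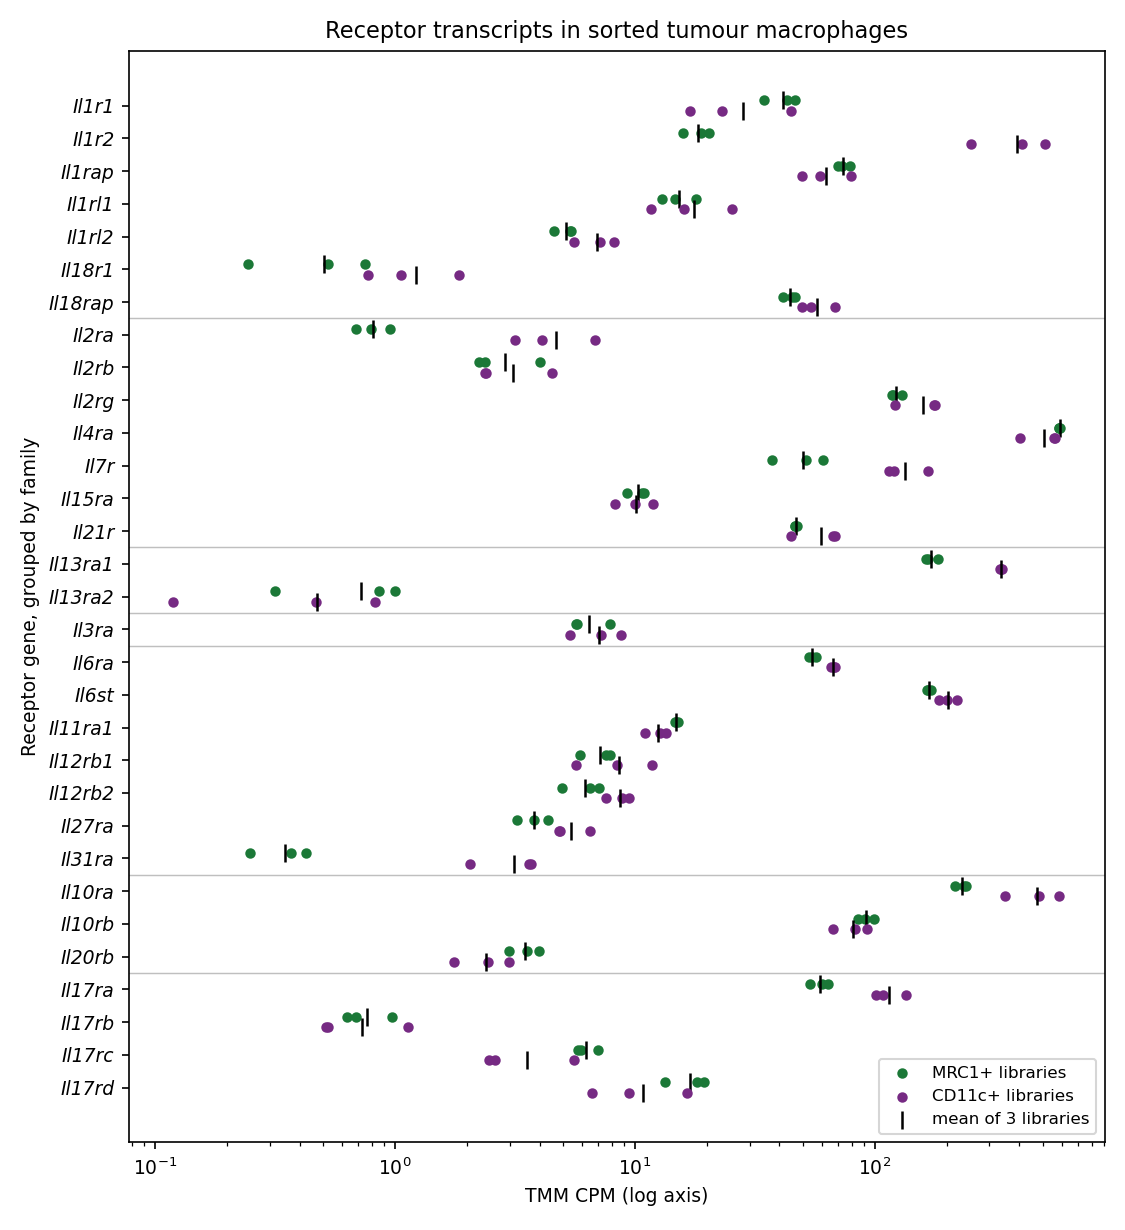
TMM CPM on a log axis for the 31 tested receptor genes, in rows by family with grey lines between families. Each point is a library (green MRC1+, purple CD11c+) and each black bar the mean of 3. The Il1r2 points lie farthest apart, at 15.8 to 20.3 CPM in MRC1+ and 251 to 512 CPM in CD11c+ libraries.

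In the IL-1 receptor family the decoy receptor differed most. Il1r2 (ENSMUSG00000026073) encodes a receptor that binds IL-1 without signalling. It stood at 18.8, 20.3 and 15.8 CPM in the MRC1+ libraries against 251, 410.0 and 512 CPM in the CD11c+ libraries. Every CD11c+ library was far above every MRC1+ library. The mean was 21.3-fold higher in CD11c+ TAMs, and the log2 fold change was -4.41 ± 0.27 SE with an edgeR adjusted p = 6.14e-05. Il1r2 is known as a neutrophil transcript too: the 8 neutrophil markers summed to 58.1 to 79.0 CPM in MRC1+ and to 122, 52.7 and 76.1 CPM in the CD11c+ libraries 1, 2 and 3. The part of neutrophils in the Il1r2 difference was not tested.

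The signalling receptor for the same ligands did not follow the decoy. Il1r1, which carries the IL-1 signal, stood at 34.4, 46.2 and 42.9 CPM in MRC1+ and 44.8, 22.9 and 16.98 CPM in CD11c+ libraries. The first CD11c+ library lay within the range of the MRC1+ group and the other two lay below it. The log2 fold change was 0.53 ± 0.31 SE with an edgeR adjusted p = 0.270. Il1rap, the accessory chain of the receptors for IL-1, IL-33 and IL-36, had 72.7, 69.9 and 78.6 CPM against 79.3, 49.7 and 59.2 CPM, again with the first CD11c+ library highest in its group. It did not pass the test (edgeR adjusted p = 0.350).

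The remaining 4 genes of this family, receptors for IL-33, IL-36 and IL-18, did not pass. Il1rl1, the IL-33 receptor, gave 14.7, 12.9 and 17.98 CPM against 25.4, 11.7 and 15.95 CPM. Both chains of the IL-18 receptor were lower in every MRC1+ library. Il18rap, its accessory chain, stood at 41.2, 44.9 and 46.6 CPM against 67.9, 49.7 and 54.1 CPM (log2 fold change -0.37 ± 0.13 SE, edgeR adjusted p = 0.0791), and Il18r1, the binding chain, stayed at or under 1.85 CPM in each sorted library. Il1rl2, the IL-36 receptor, had 4.601 to 5.42 CPM in MRC1+ and 5.56 to 8.15 CPM in CD11c+ libraries (edgeR adjusted p = 0.131).

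Among receptors of the common gamma chain group, Il2ra and Il7r fell in MRC1+ TAMs. Il2ra (ENSMUSG00000026770), the alpha chain that raises the affinity for IL-2, stood at 0.684, 0.949 and 0.792 CPM in MRC1+ and 3.17, 4.11 and 6.79 CPM in CD11c+ libraries. All MRC1+ libraries lay under 1 CPM and all CD11c+ libraries above 3 CPM. The log2 fold change was -2.48 ± 0.34 SE with an edgeR adjusted p = 0.00235. Il7r (ENSMUSG00000003882), which pairs with the gamma chain for IL-7 and with Crlf2 for TSLP, stood at 61.0, 37.4 and 51.4 CPM against 120.2, 114 and 167 CPM. The groups did not overlap, and the log2 fold change was -1.42 ± 0.20 SE with an edgeR adjusted p = 0.00282.

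The gamma chain itself and the other private chains did not pass. Il2rg had 129.6, 119 and 117 CPM in MRC1+ and 121, 175 and 178 CPM in CD11c+ libraries, with the first CD11c+ library among the MRC1+ values (edgeR adjusted p = 0.120). Il21r, the IL-21 receptor, stood at 46.3 to 47.4 CPM against 44.6, 66.7 and 68.1 CPM, with the first CD11c+ library just below the MRC1+ values and the others above them (edgeR adjusted p = 0.151). Without the first CD11c+ library both were called lower in MRC1+ TAMs, with edgeR adjusted p = 0.00221 and 0.00162. Il4ra was higher in every MRC1+ library, at 586, 585 and 593 CPM against 403, 561 and 557 CPM, but the difference of 0.21 ± 0.13 SE on the log2 scale did not pass (edgeR adjusted p = 0.307). Il15ra, which presents IL-15 to neighbouring cells, ranged from 8.22 to 11.9 CPM over both groups, and Il2rb, shared by the receptors for IL-2 and IL-15, from 2.24 to 4.53 CPM.

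Of the IL-13 receptor chains the signalling one fell. Il13ra1 (ENSMUSG00000017057) stood at 184, 166 and 163 CPM in MRC1+ and 337, 332 and 335 CPM in CD11c+ libraries. The CD11c+ values were nearly alike and lay at 1.96-fold the MRC1+ mean, with a log2 fold change of -0.97 ± 0.09 SE and an edgeR adjusted p = 0.000285. The decoy chain Il13ra2 did not exceed 0.995 CPM in any sorted library. Il3ra, the IL-3 receptor alpha chain, overlapped between groups, at 5.69 to 7.86 CPM and 5.33 to 8.75 CPM (edgeR adjusted p = 0.729).

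In the gp130 and IL-12 receptor family Il31ra and Il6ra fell. Il31ra (ENSMUSG00000050377), which joins the oncostatin M receptor chain to bind IL-31, was scarce in both groups, at 0.249, 0.369 and 0.427 CPM against 2.05, 3.69 and 3.602 CPM. The groups were far apart, and the log2 fold change was -3.11 ± 0.36 SE with an edgeR adjusted p = 0.00102. Il6ra (ENSMUSG00000027947), the IL-6 binding chain, stood at 56.5, 54.6 and 53.2 CPM against 65.7, 67.6 and 68.0 CPM. Its difference was small but larger than the spread, with a log2 fold change of -0.29 ± 0.08 SE (edgeR adjusted p = 0.0339). With the replicate number as a block the edgeR adjusted p was 0.0513. It was 0.0645 with upper-quartile in place of TMM scaling and 0.0798 in a fit of all 12 libraries. Il6ra passed in only 1 of the 6 fits that left out a library, the one without the first CD11c+ library (edgeR adjusted p = 0.0203, and up to 0.132 in the others).

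Il6st, the gp130 chain that carries the IL-6 signal, stood at 164, 172 and 167 CPM in MRC1+ and 219, 199 and 185 CPM in CD11c+ libraries. The groups did not overlap, and the log2 fold change of -0.26 ± 0.09 SE did not pass (edgeR adjusted p = 0.0796, and 0.0390 in a fit of all 12 libraries). Il12rb1, shared by the IL-12 and IL-23 receptors, Il12rb2, the second IL-12 receptor chain, and Il27ra, the IL-27 receptor, lay between 3.22 and 11.7 CPM in the sorted libraries and did not pass. The exons of Il12rb2 overlap those of Serbp1 on the other strand over 40.0% of their length, and the use of strand in counting is not given, so its reads cannot be told apart from those of Serbp1. Il11ra1, the IL-11 receptor, stood at 14.6 to 15.2 CPM against 11.02 to 13.5 CPM (edgeR adjusted p = 0.167), a value that is uncertain because the mouse genome holds near-identical copies of the gene.

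In the class II family the binding chain for IL-10 fell and the shared chain did not pass. Il10ra (ENSMUSG00000032089) stood at 234.9, 215 and 239 CPM in MRC1+ and 349.7, 485 and 586 CPM in CD11c+ libraries. Every CD11c+ library was above every MRC1+ library, with a log2 fold change of -1.04 ± 0.17 SE and an edgeR adjusted p = 0.00559. Il10rb had 99.1, 85.4 and 90.9 CPM against 66.9, 82.8 and 93.0 CPM, with overlap and an edgeR adjusted p = 0.353. Il20rb, part of the receptors for IL-19, IL-20 and IL-24, did not exceed 3.96 CPM (edgeR adjusted p = 0.145).

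In the IL-17 receptor family the shared chain fell and its tested partners did not pass. Il17ra (ENSMUSG00000002897), the chain common to this family's receptors, stood at 59.9, 53.8 and 63.4 CPM in MRC1+ and 101, 108 and 135 CPM in CD11c+ libraries. The groups did not overlap, and the log2 fold change was -0.95 ± 0.13 SE with an edgeR adjusted p = 0.00191. Il17rc, which joins it for IL-17A and IL-17F, lay in the other direction, at 5.78, 5.96 and 7.01 CPM against 5.57, 2.62 and 2.47 CPM. It did not pass, at 0.78 ± 0.31 SE and an edgeR adjusted p = 0.117. Il17rd, a family member also known as an inhibitor of FGF signalling, had 13.4, 19.4 and 18.2 CPM against 16.4, 9.47 and 6.59 CPM (edgeR adjusted p = 0.184). Il17rb, the IL-25 receptor, did not exceed 1.13 CPM.

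**Figure D2:**
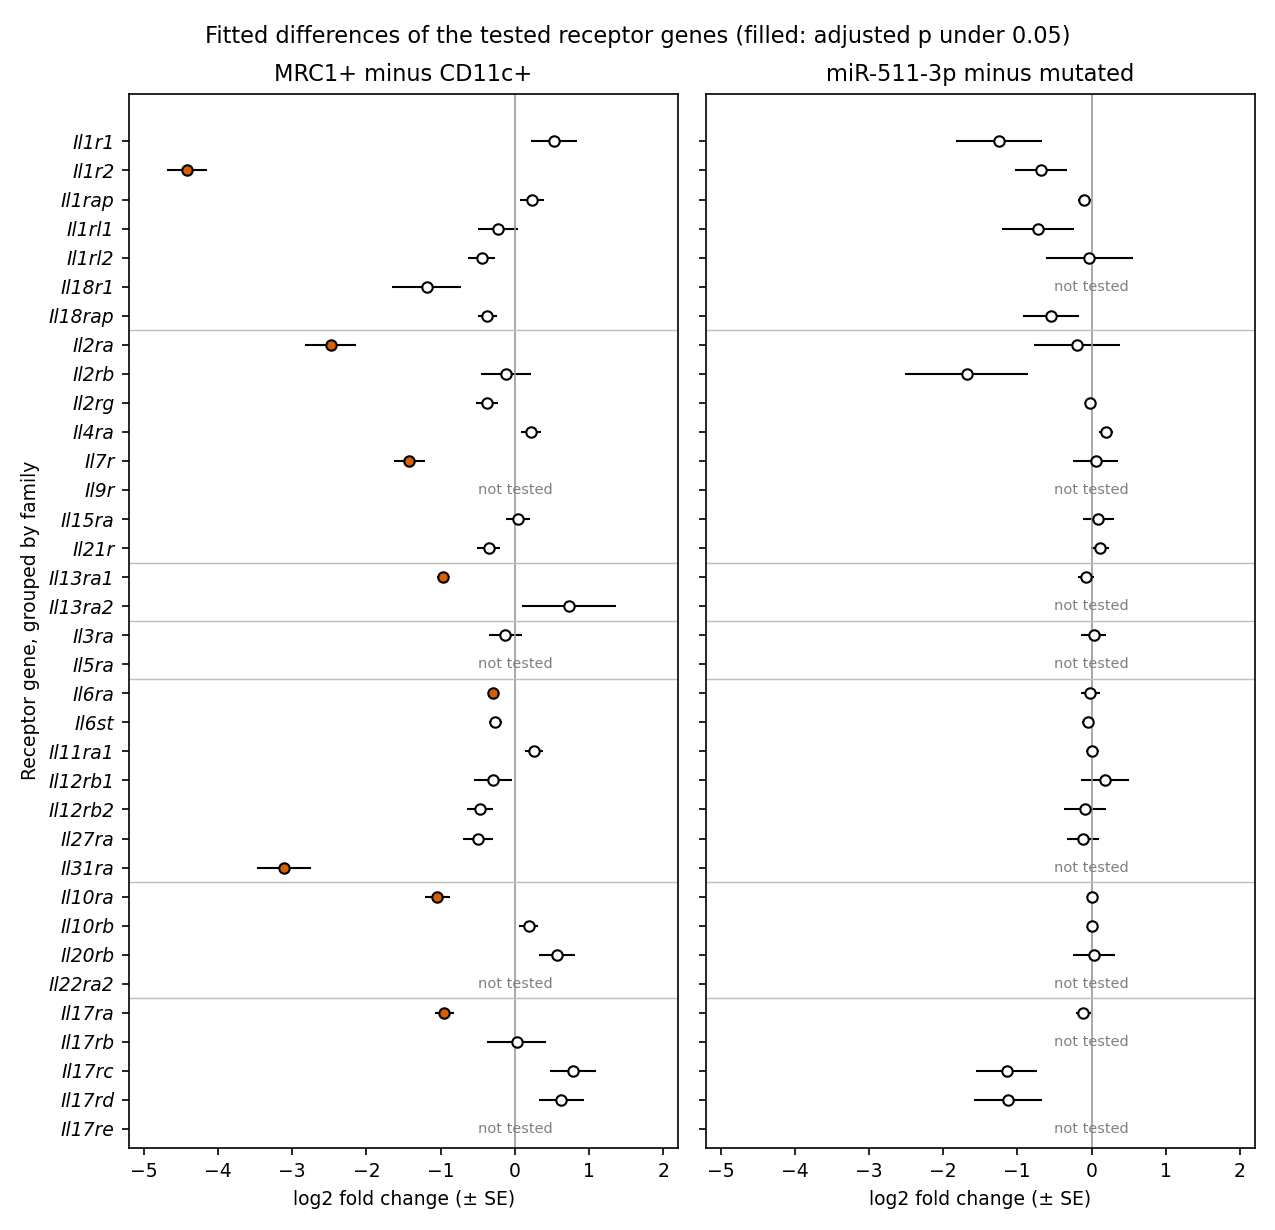
Log2 fold changes ± SE of receptor genes in rows by family, for the 31 tested in MRC1+ minus CD11c+ TAMs (left) and the 27 tested in miR-511-3p minus mutated miR-511-3p TAMs (right), with filled points where the adjusted p is under 0.05. The left panel holds 8 filled points, all below 0, and the right panel none.

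Apart from Il6ra, the called genes passed in each of the 6 fits that left out a library and with the replicate block. Their highest edgeR adjusted p without a library was 0.0281, for Il10ra. The libraries differed in other cell types as well. The macrophage sums given above did not overlap between the sorted groups, but they include Mrc1, the gene of a gate. Mrc1 alone stood at 4099, 3623 and 3609 CPM in MRC1+ and 1447, 1826 and 1574 CPM in CD11c+ libraries. The sort itself thus set part of the difference in the sums. Of the 8 markers 3 (Adgre1, Mertk and Mrc1) were called higher in MRC1+ TAMs. Without a call Csf1r and Fcgr1 leaned lower and Cd68, Lyz2 and C1qa higher. Of 12 dendritic cell markers 10 were called lower in MRC1+ TAMs, and their sum was 166 to 205 CPM in MRC1+ and 1326 to 1629 CPM in CD11c+ libraries. Among these markers is Itgax, the gene of the CD11c gate, which made up most of each CD11c+ sum. Itgax stood at 123, 104 and 78.6 CPM in MRC1+ and 943, 1051 and 972 CPM in CD11c+ libraries. Of 9 markers of NK and innate lymphoid cells 3 were called lower, with sums of 6.09 to 12.8 CPM and 35.9 to 53.2 CPM. No marker of either list was at 0 in all libraries of a sorted group. T cell markers summed to 69.1 to 135 CPM and 25.9 to 103 CPM with 0 of the 7 tested of 10 called. Cd4, which macrophages can express too, made up most of these sums, at 62.7 to 127 CPM and 16.6 to 96.0 CPM. The highest values of the other T cell markers over the sorted libraries ran from 0.488 CPM for Cd3e to 2.52 CPM for Cd8a. The part of these cells, or of the macrophage difference, in the fall of Il1r2, Il2ra, Il7r and the other called receptors was not tested.

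The first CD11c+ library stood apart from the other two in several receptor genes. The 8 fibroblast markers summed to 1190.1, 270.4 and 329.6 CPM in the CD11c+ libraries and to 868, 617 and 815 CPM in the MRC1+ libraries, and the mast cell and basophil markers to 118, 44.6 and 49.0 CPM in the CD11c+ libraries. Il1r1, Il1rl1, Il17rc and Il17rd were each highest in the same CD11c+ library. Without it, 4 receptor genes were called higher in MRC1+ TAMs and 10 lower, against 0 and 8 with it. The 4 were Il1r1 (log2 fold change 1.03, edgeR adjusted p = 0.00259), Il17rc (1.28, 0.00219), Il17rd (1.05, 0.00751) and Il1rap (0.44, 0.0147). The part of fibroblasts or of this library's preparation in these values was not tested. Over all genes the calls without this library were 2356 higher and 2351 lower, against 1080 and 1517 with it, and without the second or the third MRC1+ library 410.0 or 390.0 higher and 860.0 or 889 lower.

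**Figure D3:**
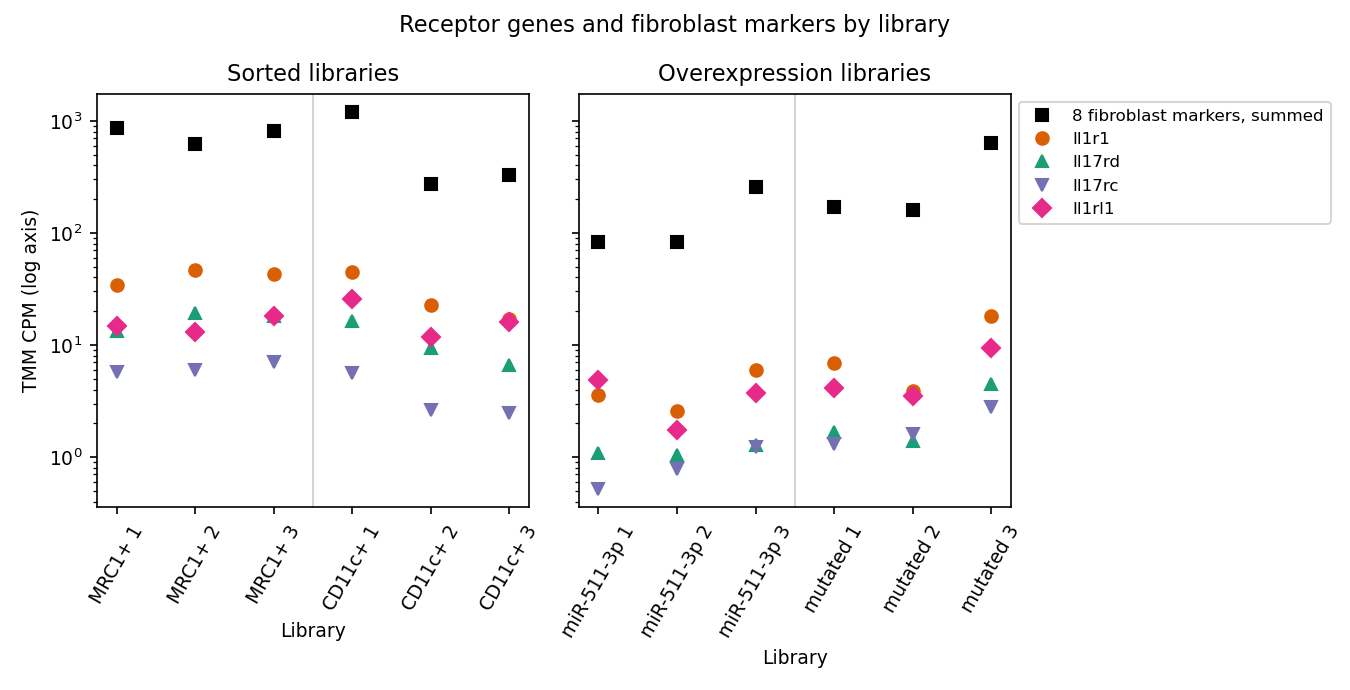
TMM CPM on a log axis of Il1r1, Il17rd, Il17rc and Il1rl1 (coloured symbols) and the sum of 8 fibroblast markers (black squares) in each sorted library (left) and each overexpression library (right). The first CD11c+ library (1190.1 CPM) and the third mutated library (639 CPM) have the highest fibroblast sums of their panels.

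Ratios of chains that share a ligand were taken within each library, per kilobase of exon, for 5 pairs in both comparisons. These pairs were picked with their values in view. The decoy Il1r2 stood at 1.82, 1.46 and 1.23 times Il1r1 in MRC1+ and at 18.7, 59.6 and 101 times Il1r1 in CD11c+ libraries. Il10ra stood at 2.58, 2.74 and 2.86 times Il10rb against 5.69, 6.37 and 6.86 times. Il13ra1, of the type II IL-4 receptor, stood at 0.911, 0.892 and 0.894 times Il2rg, of the type I receptor, against 1.79, 1.22 and 1.21 times. In each of these pairs the groups did not overlap.

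The ratio of Il17ra to Il17rc was 3.20, 2.78 and 2.79 in MRC1+ and 5.58, 12.6 and 16.8 in CD11c+ libraries, also without overlap. Il6ra to Il6st did overlap, at 0.408 to 0.442 and 0.385 to 0.472. The exact two-sided permutation test gave p = 0.1 for the 4 pairs without overlap, the smallest that 3 libraries against 3 allow, and p = 0.7 for Il6ra to Il6st. After Benjamini-Hochberg adjustment over the 10 ratios the 4 exact permutation tests gave 0.25. The limit is that of this exact test, which cannot go under 0.05 here.

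**Figure D4:**
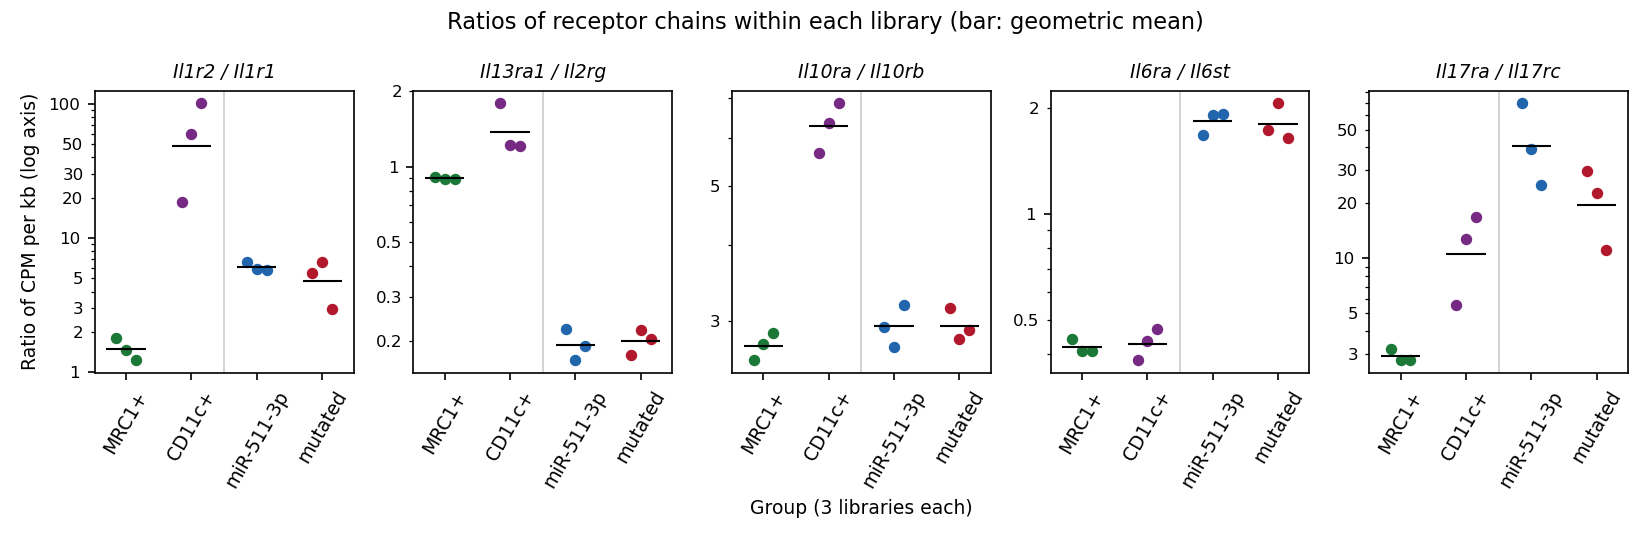
Ratios of CPM per kb of 5 pairs of receptor chains on log axes, with a point for each library and a bar at the geometric mean of each group of 3. The ratio of Il1r2 to Il1r1 lies between 1.23 and 1.82 in MRC1+ libraries and between 18.7 and 101 in CD11c+ libraries.

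Genes that work with these receptors were taken from 3 lists of ligands, partner chains and signalling genes. Of 46 interleukin ligands and soluble antagonists 22 were tested, and 1 was called higher and 2 lower in MRC1+ TAMs. In this main fit, which took no pairs of libraries, these are 4.55% and 9.09% of the 22. They lie near the 6.91% and 9.71% called over all genes tested in the same fit. The median log2 fold change of the 22 was -0.27, against 0.012 over all genes tested. Il1b, the main ligand of Il1r1 and Il1r2, stood at 1202, 1226 and 1698 CPM in MRC1+ and 2700.1, 3721 and 6544 CPM in CD11c+ libraries. The groups did not overlap, and Il1b was lower in MRC1+ TAMs by a log2 fold change of -1.65 ± 0.31 SE (edgeR adjusted p = 0.00970). Il12b, the p40 chain of IL-12 and IL-23, was the other ligand gene that fell, at 1.80, 1.69 and 1.16 CPM against 13.8, 19.7 and 36.2 CPM (log2 fold change -3.88 ± 0.39 SE, edgeR adjusted p = 0.000533). Il11, a gp130 cytokine, was the only one called higher, at 2.61 to 2.93 CPM against 0.618 to 1.17 CPM. With the replicate block 3 ligand genes were called higher and 8 lower. The share called over all genes in that fit is not given here. Il23a (edgeR adjusted p = 0.000514), Il1a (0.0347), Il27 (0.0381) and Il6 (0.0489) were among those lower with the block. Il10 (0.0268) and Il33 (0.0383) were among those higher. None of these passed in the main fit.

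Of 20 partner chains outside the member list 11 were tested, and 1 was called higher and 5 lower, with a median of -0.41. These are 9.09% and 45.5% of the 11, against 6.91% and 9.71% over all genes tested. Csf2rb, the common beta chain for IL-3, IL-5 and GM-CSF, stood at 116, 127 and 107 CPM in MRC1+ and 318, 440.0 and 478 CPM in CD11c+ libraries (log2 fold change -1.82 ± 0.16 SE, edgeR adjusted p = 0.000278). Csf2rb2, its near-identical IL-3 specific copy, fell by 1.45 ± 0.13 SE on the log2 scale, and reads of the pair can be split between them. Csf2ra, the GM-CSF receptor alpha chain, and the interferon gamma receptor chains Ifngr1 and Ifngr2 were the other partners that fell. Ifngr1 kept its call in each fit that left out a library, Csf2ra in 2 of 6 and Ifngr2 in 1 of 6. Lifr, the LIF receptor chain that joins gp130, was called higher at 182, 133 and 152 CPM against 111, 100.015 and 112 CPM (edgeR adjusted p = 0.0236). It kept its call in 3 of 6 fits without a library (edgeR adjusted p up to 0.0899) and lost it in the fit of all 12 libraries (0.238).

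All 40 receptor signalling genes were tested, and 14 were called lower and 1 higher in MRC1+ TAMs, with a median of -0.25. These are 35% and 2.5% of the list, against 9.71% and 6.91% over all genes tested. Those that fell included JAK kinases (Jak2, Tyk2), STAT factors (Stat2, Stat3, Stat4, Stat5b), inhibitors of JAK signalling (Socs1, Socs2, Cish, Ptpn6) and genes downstream of IL-4 or IL-1 receptors (Irs2, Myd88, Irak2). Socs2 had the lowest p, at 2.18, 3.53 and 2.26 CPM against 14.5, 15.1 and 16.1 CPM (log2 fold change -2.50 ± 0.20 SE, edgeR adjusted p = 0.000197). Jak2, the kinase bound by several of these chains, stood at 121, 132 and 133 CPM against 257, 292 and 379 CPM, a log2 fold change of -1.27 ± 0.14 SE (edgeR adjusted p = 0.000926). Stat4, the main STAT of IL-12, fell by 1.95 ± 0.18 SE and Cish by 2.39 ± 0.26 SE on the log2 scale. Pias3, an inhibitor of STAT3, was the gene called higher (0.48 ± 0.13 SE, edgeR adjusted p = 0.0446), and it missed the threshold with the replicate block (edgeR adjusted p = 0.0557). Of the 14 genes that fell, those with calls in fewer than 6 of the 6 fits without a library included Stat2, Stat3, Stat5b, Socs1, Irs2 and Irak2.

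The promoters of the members were searched for 2 motifs. RefSeq promoter windows of 300 bases (GRCm38.p6) existed for 28 of the 35 members, in 34 windows. The letters TTCNNNGAA are the GAS element that STAT dimers bind, and they read the same on both strands. They occurred in 5 of the 34 member windows, a window each of Il1r2, Il18r1, Il7r, Il12rb2 and Il31ra. Over all 32851 promoter windows the share was 8.30%. Of the 8 receptor genes that fell 6 had a window and 3 held a match, against 2 of the 19 other tested members with a window. This split rests on the calls given above, and the difference was not tested. The letters GAGGAAGT, bound by the macrophage factor PU.1 and searched on both strands, occurred in the window of Il18rap alone among the members and in 3.20% of all windows, so the motifs shared no member window. The 3 windows of genes that fell are shown because they hold the GAS letters, in capitals. They run from 250 bases before to 50 bases after the start that RefSeq lists, and other starts of these genes were not searched. The first base of the match lies 111 bases before the start in Il1r2 (chr1:40085843-40086142, plus strand), 142 bases in Il7r (chr15:9529827-9530126, minus strand) and 191 bases in Il31ra (chr13:112580613-112580912, minus strand).
Il1r2: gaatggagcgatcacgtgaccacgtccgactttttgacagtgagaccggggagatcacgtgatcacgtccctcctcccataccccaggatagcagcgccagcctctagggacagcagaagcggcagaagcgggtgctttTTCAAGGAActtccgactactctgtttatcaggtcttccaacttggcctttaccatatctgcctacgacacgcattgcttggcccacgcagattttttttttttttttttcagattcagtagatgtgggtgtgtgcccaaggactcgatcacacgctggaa
Il7r: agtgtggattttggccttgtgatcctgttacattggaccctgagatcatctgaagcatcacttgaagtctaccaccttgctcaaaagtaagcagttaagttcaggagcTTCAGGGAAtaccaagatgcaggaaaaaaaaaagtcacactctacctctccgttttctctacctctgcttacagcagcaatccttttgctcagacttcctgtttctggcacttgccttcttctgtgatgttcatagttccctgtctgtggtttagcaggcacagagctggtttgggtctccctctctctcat
Il31ra: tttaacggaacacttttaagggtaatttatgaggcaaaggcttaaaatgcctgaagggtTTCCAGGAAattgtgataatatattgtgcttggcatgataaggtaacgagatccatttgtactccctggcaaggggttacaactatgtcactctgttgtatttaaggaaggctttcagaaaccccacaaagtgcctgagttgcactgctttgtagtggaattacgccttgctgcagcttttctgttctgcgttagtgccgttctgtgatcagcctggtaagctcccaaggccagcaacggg
These matches are letters in a window and say nothing about binding in these cells.

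The comparison of miR-511-3p with mutated miR-511-3p TAMs asks whether the microRNA changes receptor transcripts. No receptor gene was called in either direction by the quasi-likelihood test of edgeR after the same adjustment. The share called over all 14054 genes tested was 0%. At an unadjusted p under 0.05 there were 343 genes, 2.44% of those tested, and 2 of the 27 members tested. DESeq2 called 1 gene over all genes, which was no member. The median log2 fold change of the 27 members was -0.044, against 0.0027 over all genes. Il18r1, Il13ra2, Il31ra, Il17rb, Il5ra, Il22ra2, Il9r and Il17re were not tested, with 0 to 25 reads per library. Il9r and Il17re had 0 reads in each of the 6 libraries, where a count of 0 allows up to 0.108 to 0.131 CPM per library.

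The abundant receptors were near alike in both groups. Il10ra stood at 314, 314 and 337 CPM with miR-511-3p and 333, 324 and 307.2 CPM with the mutated form. Il2rg stood at 365, 408 and 367 CPM against 382, 388 and 388 CPM. Il4ra was higher in every miR-511-3p library, at 491, 600.2 and 478 CPM against 470.4, 465 and 436 CPM, with a log2 fold change of 0.20 ± 0.10 SE (edgeR adjusted p = 0.9999). Among the tested members Il4ra lay higher and Il17rc and Il17rd lay lower without overlap of the groups, as did 2.79% and 3.59% of all genes tested, or 6.38% in either direction.

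The other members of lowest p were lower with miR-511-3p, and in each the third mutated library was the highest. Il17rc stood at 0.522, 0.790 and 1.24 CPM with miR-511-3p and 1.31, 1.61 and 2.78 CPM with the mutated form, a log2 fold change of -1.14 ± 0.41 SE (edgeR adjusted p = 0.9999). Il17rd stood at 1.09, 1.05 and 1.28 CPM against 1.67, 1.40 and 4.44 CPM (log2 fold change -1.13 ± 0.46 SE). Il1r1 stood at 3.57, 2.60 and 5.94 CPM against 6.86, 3.85 and 18.2 CPM (-1.25 ± 0.58 SE). These 3 genes had no call in any alternative that was run.

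Il2rb stood at 0.696, 1.05 and 2.48 CPM against 3.09, 0.931 and 9.69 CPM (-1.68 ± 0.83 SE, edgeR adjusted p = 0.9999). The third mutated library also held the highest sum of fibroblast markers, at 639 CPM. The other mutated libraries held 158 and 171 CPM and the miR-511-3p libraries 83.6 to 255 CPM. Its T cell markers summed to 34.7 CPM, against 14.6 and 23.2 CPM and 8.73 to 18.8 CPM. Cd4 made up 15.1 CPM of that sum, and 11.2 and 21.6 CPM in the other mutated libraries. The third mutated library was also highest in NK and innate lymphoid (11.4 CPM), neutrophil (141 CPM), mast cell and basophil (26.0 CPM) and epithelial and carcinoma markers (45.4 CPM). Its macrophage, dendritic cell, B cell, eosinophil and endothelial sums were not the highest. Without this library the log2 fold changes were -0.76 for Il17rc, -0.43 for Il17rd, -0.41 for Il1r1 and -0.52 for Il2rb. The part of those cells in the values was not tested.

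MiR-511-3p pairs with its targets through its seed, bases 2 to 8, in capitals in the RefSeq mature sequence (GRCm38.p6, chr2:14261051-14261072, plus strand).
mmu-miR-511-3p: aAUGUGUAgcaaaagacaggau
A match to bases 2 to 8 (TACACAT), or to bases 2 to 7 followed by A (ACACATA), lay in the longest 3′ UTR annotated in GENCODE M21 of 12 of the 35 members, 34.3%. Among genes tested with a 3′ UTR the share was 20.7% of 11918, and 33.3% of the 27 tested members, whose median 3′ UTR was longer (2353 against 1352 bases). Sites that match all of bases 2 to 8 occurred in Il1rap, Il7r and Il5ra, and those of the tested genes are shown with the match in capitals.
Il1rap: acttcccatTACACATcttatttttgc
Il7r: tgaccttgcTACACATcttcagcattc
Il1rap had 34.97, 29.2 and 28.7 CPM with miR-511-3p and 32.9, 32.4 and 34.0 CPM with the mutated form, and Il7r 79.4, 44.7 and 55.5 CPM against 82.4, 39.5 and 50.7 CPM. Both overlapped between the groups. The 9 tested members with a site had a median log2 fold change of -0.044, with 3 above and 6 below 0, and those without a site -0.057. Over all genes tested the medians were -0.015 with and 0.0056 without a site.

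The receptor genes called between MRC1+ and CD11c+ TAMs overlapped between the overexpression groups. Il1r2 stood at 7.09, 4.59 and 10.2 CPM with miR-511-3p and 11.2, 7.70 and 16.2 CPM with the mutated form. Il1r2 was lower with miR-511-3p in each same-numbered pair of libraries. With the replicate block it had the lowest value of the members but did not pass (edgeR adjusted p = 0.135). The third mutated library, highest in Il1r2, also held the highest sum of neutrophil markers, at 141 CPM. The other mutated libraries held 74.6 and 63.7 CPM and the miR-511-3p libraries 70.7 to 84.5 CPM. Without that library the log2 fold change of Il1r2 was -0.38, against -0.68 with it. The part of neutrophils in this was not tested. Il13ra1 ranged from 107 to 128 CPM and from 105 to 134 CPM, and Il17ra from 100.4 to 118 CPM and from 99.9 to 126 CPM. Il6ra ranged from 122 to 153 CPM and from 124 to 165 CPM. The 5 ratios of receptor chains overlapped between the groups in every pair, with exact two-sided permutation p between 0.2 and 1. Of the 3 lists of working partners, 0 of 19 tested ligands, 0 of 12 partner chains and 0 of 40 signalling genes were called by edgeR, with 0, 1 and 0 genes at an unadjusted p under 0.05.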

How the data were processed

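Per the labels' protocols, sequencing libraries were built with Illumina's TruSeq kit for RNA. The authors deposited 1 table of whole-number read counts per Ensembl gene for each library, not normalized. HTSeq, SAMtools 0.1.12a, TopHat 1.2.0, Bowtie and the build mm9 (NCBIM37) are listed in the submitters' processing notes. For HTSeq's treatment of strand and overlaps, nothing is given in the sources used here. The 5 summary entries per table that name no gene were left out. They held reads over no gene (7.64% to 26.6%), ambiguous reads (1.76% to 2.49%) and reads aligned to several places (12.8% to 20.1%). Symbols, exon lengths and 3′ UTRs came from GENCODE M21, on a later build.

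Each comparison used edgeR 4.0.16 in R 4.3.3 on its 6 libraries, with filterByExpr, TMM scaling, the quasi-likelihood test and Benjamini-Hochberg adjustment at 0.05. The SE is the absolute log2 fold change over the square root of F. The alternatives were upper-quartile scaling, DESeq2 1.42.0, no filter, a filter of 5 CPM in 3 libraries, a fit of all 12 libraries, a replicate block and leaving out each library. Same-numbered libraries deviated together (r = 0.104, 0.337 and 0.250 sorted, and 0.147, 0.258 and 0.462 overexpressing, all over 0.1). On the data alone, the replicate block took the numbers as pairs, and the main fit did not. A pair of unlike number, miR-511-3p library 1 with mutated library 2, had r = 0.166, above the 0.147 of the first overexpression pair. Chi-square per degree of freedom between libraries of a group was 9.18 to 33.0, so no pair agreed within sampling noise. On simulated counts with 200 changed genes the sorted design recovered 67.0% of 2-fold and 92.0% of 4-fold changes over 15397 genes. The overexpression design recovered 75.0% and 90.0% over 13913. The data gave 2597 calls between the sorted groups and 0 between the overexpression groups. Recovery depends on the number of changed genes, so these rates need not hold for either comparison. Of the calls made on simulated counts, 7.02% and 7.30% were false, above the 5% aimed at.

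The members and lists were chosen with earlier results of these data known. The genes named were every member that passed, the members of lowest p up to 10 (5 for the overexpression comparison), the 5 highest per length in each group and up to 5 passing genes of lowest p per direction of each list. Others named were chosen after their values were seen. A gene of the signalling list is counted but not reported here by name.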

Additional observations from a re-analysis of the deposited data

How the results depend on the processing

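Of the receptor genes that fell in MRC1+ TAMs, Il1r2, Il2ra, Il7r, Il13ra1, Il31ra, Il10ra and Il17ra kept the call under all 12 alternatives run in which they were tested, the replicate block included. Leaving out 1 library gave 0 to 4 receptor genes higher and 7 to 10 lower in MRC1+ TAMs, and over all genes 390.0 to 2356 higher and 860.0 to 2351 lower. It gave 1 to 5 ligand genes higher and 2 to 7 lower, 0 to 2 partner chains higher and 3 to 8 lower, and 0 to 2 signalling genes higher and 7 to 20 lower. It gave 0 calls over all genes between the overexpression groups. The replicate block gave 3 ligand genes higher and 8 lower, 0 signalling genes higher, and 1 gene lower over all genes between the overexpression groups. Of the receptor genes it changed only the call of Il6ra. Il6ra also lost its call with upper-quartile scaling and in the fit of all 12 libraries, and kept it in 3 of the 12 alternatives. The fit of all 12 libraries gave 2 ligand genes higher and 6 lower, 0 partner chains higher and 8 lower, 4 signalling genes higher, and 1 gene higher over all genes between the overexpression groups. Without a filter 4 ligand genes were higher and 6 lower, 8 partner chains were lower and 0 signalling genes higher. For the replicate block, the 12-library fit and the fit without a filter, the share of all genes called between the sorted groups is not given. The list counts of those fits therefore cannot be read against it. The filter of 5 CPM left 0 ligand genes higher. DESeq2 gave 0 signalling genes higher and 1 gene higher over all genes between the overexpression groups. Uncalled receptor genes whose log2 fold change between the sorted groups took both signs without a library were Il1rl1 (-0.46 to 0.15), Il2rb (-0.45 to 0.27), Il15ra (-0.090 to 0.18), Il3ra (-0.31 to 0.045) and Il17rb (-0.22 to 0.53). The cause of these shifts was not tested. With 3 libraries a group the exact test of a ratio cannot go below 0.1, and receptor genes under about 1 CPM rest on few reads.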
